A study of Mus musculus with 8 samples.

Results

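The genes described here are 10 of the 55536 genes counted in each library: the kinase *Mtor* and its complex partners *Rptor*, *Mlst8* and *Deptor*, the GTPase *Rheb*, the subunits *Tsc1* and *Tsc2* of the complex that switches Rheb off, the REDD inhibitors *Ddit4* and *Ddit4l*, and the arginine sensor *Castor1*. They were picked by symbol, each symbol matched 1 Ensembl gene (GRCm38, Ensembl release 96), and the choice was made with the comparison of GC7 against mock already known. Their GC7 and mock values are therefore given as a description, with no p-value for any member, and the number called in the fit across all genes is printed only beside the background share. All libraries came from lymphocytes of C57BL/6 mice that carry the OT-1 T cell receptor transgene, specific for the ovalbumin peptide SIINFEKL, on a Rag1-deficient background, so that every T cell has the same receptor and no B cells develop. The mice were 5 to 12 weeks old, of either sex, and carried either the CD45.1 or the CD45.2 allele. Lymph node cells of both groups were activated with 100 nM SIINFEKL for 2 days, washed, and expanded for 2 days in 20 ng/ml recombinant human IL-2. During the IL-2 phase the GC7 group received 10 µM GC7, a spermidine-derived inhibitor of DHPS, the enzyme that starts hypusination of the translation factor eIF5a, and the mock group received its acetic acid vehicle. Each group had 4 biological replicates, and total RNA was extracted from the harvested cells of each for sequencing.

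mTORC1 is a protein kinase complex at the lysosome that joins growth factor, amino acid and energy signals to protein synthesis and growth. Rheb bound to GTP activates it, the TSC1-TSC2 complex returns Rheb to its inactive form, and amino acids bring the complex to Rheb through the Rag GTPases. In CD8 T cells it is switched on by antigen and IL-2 and sustains the growth of the activated cell. REDD1, the product of *Ddit4*, and REDD2, the product of *Ddit4l*, are small proteins that lower mTORC1 activity through the TSC complex, and *Ddit4* is known for its induction by hypoxia, glucocorticoids and stress.

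In these cells the members differed widely in how far they moved between mock and GC7. *Ddit4*, the most abundant member, had a 1.54-fold lower level in GC7-treated cells (392 ± 15.3 CPM in mock, 254 ± 12.5 CPM in GC7, SD, n = 4). *Castor1* was 1.99-fold lower and *Deptor*, at a few CPM, was also lower. *Ddit4l* showed the opposite, with 11 counts over the 4 mock libraries and 402 over the 4 GC7 libraries. *Mtor*, *Rptor*, *Mlst8*, *Rheb*, *Tsc1* and *Tsc2* all lay between a log2 change of -0.15 and 0.30.

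Mock libraries held 20045041 to 25284730 counts and GC7 libraries 17528776 to 23449164. Values are CPM, counts scaled to the size of the library, with TMM factors, which correct for differences in library composition (mock 0.9346 to 0.9831, GC7 1.027 to 1.04). Such scaling centres the typical gene near no change, and the median log2 change was 0.02 over the 11189 genes tested (quartiles -0.27 and 0.31), or 0.11 when libraries were scaled by their totals alone. The CD8 T cell markers were *Cd3d*, *Cd3e*, *Cd3g*, *Cd8a*, *Cd8b1* and *Thy1*, with the effector genes *Gzmb* and *Prf1* (8 of 8 passed the filter). They summed to 8046 to 9541 CPM in mock and 5352 to 7155 CPM in GC7, non-overlapping ranges. Such a sum follows its most abundant genes and does not measure the share of CD8 T cells. The B cell list summed to 7.02 to 10.1 CPM in mock and 4.63 to 5.93 CPM in GC7 (1 of 4 passed, with *Ms4a1* at 3 counts or fewer everywhere), and *Cd4* to at most 0.41 CPM. Macrophage and dendritic cell markers reached at most 0.446 CPM (0 of 5 passed, with *Csf1r*, *Adgre1* and *C1qa* at 3 counts or fewer). NK cell markers, among them *Eomes*, also a CD8 T cell gene, lay between 1.9 and 3.19 CPM (0 of 3 passed). The lymph node stroma list summed to 51.5 to 56.2 CPM in mock and 30.3 to 32.1 CPM in GC7, of which only *Pecam1*, also a lymphocyte gene, passed the filter, while *Col3a1* and *Pdgfra* had 3 counts or fewer in every library. The part of these shifts in the values of the members was not tested.

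The bases upstream of the transcription start are shown for *Ddit4*, *Ddit4l* and *Castor1*, which all inhibit the pathway but did not move together. The sequences are from RefSeq (GRCm38.p6), written 5′ to 3′ on the strand of the gene. Capitals mark matches, on either strand, to the hypoxia response element cores ACGTG and GCGTG, to the GC box GGGCGG and to the CCAAT box CCAAT.
Ddit4, chr10:59951835-59952020, minus strand: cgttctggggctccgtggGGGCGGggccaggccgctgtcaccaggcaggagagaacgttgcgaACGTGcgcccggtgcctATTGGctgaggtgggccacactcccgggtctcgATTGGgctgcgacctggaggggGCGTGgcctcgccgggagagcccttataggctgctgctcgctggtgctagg
Ddit4l, chr3:137623422-137623671, plus strand: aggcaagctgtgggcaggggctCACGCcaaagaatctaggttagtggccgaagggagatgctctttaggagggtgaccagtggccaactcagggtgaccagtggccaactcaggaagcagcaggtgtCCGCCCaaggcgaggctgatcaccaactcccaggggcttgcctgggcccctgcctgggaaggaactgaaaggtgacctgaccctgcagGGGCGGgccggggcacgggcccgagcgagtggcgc
Castor1, chr11:4217975-4218224, plus strand: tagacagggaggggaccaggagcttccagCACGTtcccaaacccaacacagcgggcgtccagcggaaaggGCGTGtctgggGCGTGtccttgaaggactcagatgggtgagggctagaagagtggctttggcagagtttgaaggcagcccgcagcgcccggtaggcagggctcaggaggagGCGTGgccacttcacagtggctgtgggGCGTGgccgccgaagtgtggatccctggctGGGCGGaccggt

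The *Ddit4* stretch is 186 bases long, 69.9% of them G or C, and ends at the base before the annotated gene. The stretch holds ACGTG at position -187 and GCGTG at -115 from the RefSeq start, a GC box and 2 inverted CCAAT boxes. That start lies inside the annotated gene, so the bases between it and the stretch are not shown. The *Ddit4l* stretch directly precedes the start of the coding transcript, lies in an intron of an alternative transcript, and holds 2 GC boxes and an inverted GCGTG. The *Castor1* stretch holds 4 GCGTG cores, an inverted ACGTG and a GC box. RefSeq windows from 250 bases before to 50 after the start were found for 9 members, *Deptor* being the one without. ACGTG was present in 4 of these 9 windows and in 19.6% of the 32851 windows of all genes, and GCGTG in 6 of 9 and in 32.4% of all. GC boxes were present in 5 of 9 windows (35.7% of all), CCAAT in 2 of 9 (37.4%), the E-box CACGTG, which contains ACGTG, in 1 of 9, that of *Rheb* (7.15%), and TATAAA in 1 of 9 (13.6%), 36 bases after the *Ddit4l* start. The ATF4 composite element TGATGNAAT (0.965% of all windows) and the FOXO element TGTTTAC (3.65%) were not found in the member windows. These are letter matches, and neither a match nor its lack says whether a factor binds.

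*Mtor* (ENSMUSG00000028991, chromosome 4, 148448611 to 148557683, plus strand) encodes the kinase of both mTOR complexes. Its level was 59, 41.7, 53.6 and 54.8 CPM in mock replicates 1 to 4 and 58.7, 65.2, 62.7 and 58.4 CPM in the GC7 replicates. Mock replicate 2 was the lowest library, and the groups overlapped because mock replicate 1 exceeded 2 GC7 libraries. The mean was 17.2% higher in GC7 (log2 change 0.23, SE 0.0957), and without mock replicate 2 the log2 change was 0.14. In bulk RNA a change in the mix of cells and a change in the RNA of each cell cannot be told apart, here and for every member.

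*Rptor* (ENSMUSG00000025583, chromosome 11, 119602905 to 119899576, plus strand) encodes Raptor, the scaffold that defines mTORC1 and recruits its substrates. It stood at 43.6, 36.7, 38.9 and 42.3 CPM in mock and at 54.6, 50.9, 45.3 and 48.5 CPM in GC7. Every GC7 library was above every mock library, with a log2 change of 0.30 (SE 0.0788), which is 23.4% higher. *Mlst8* (ENSMUSG00000024142, chromosome 17, 24473551 to 24479078, minus strand), whose product binds the kinase domain in both complexes, had 14.5, 13.4, 15.9 and 16.7 CPM in mock and 15.2, 14.8, 16.2 and 16.6 CPM in GC7. The groups lay on top of each other, with a log2 change of 0.05 (SE 0.0902). *Mlst8* shares 997 exon bases, 22.5% of its exon length, with *Bricd5*, which had no counts in any library.

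*Deptor* (ENSMUSG00000022419, chromosome 15, 55112317 to 55259271, plus strand) encodes an inhibitor that binds mTOR in both complexes. It was close to silent, with 51, 47, 42 and 48 counts in mock and 20, 26, 18 and 27 counts in GC7, or 2.24 ± 0.319 CPM against 1.07 ± 0.0996 CPM (SD, n = 4). Every GC7 library was below every mock library, and the summed counts of 91 against 188 give a ratio of 0.484 (exact 95% interval 0.373 to 0.625, counting error only). The gene missed the filter of more than 3 CPM in at least 4 libraries, and in a fit with a minimum of 1 CPM its log2 change was -1.06 (SE 0.19). A pseudogene with a near-identical stretch had no counts.

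*Rheb* (ENSMUSG00000028945, chromosome 5, 24802823 to 24842624, minus strand) encodes the GTPase that switches mTORC1 on. Its level was 59.8, 60.2, 57.2 and 56 CPM in mock and 65.5, 71.2, 66.9 and 67.1 CPM in GC7. The groups did not overlap, and the difference was small but even across libraries, with a log2 change of 0.22 (SE 0.0582) and a mean 16.1% higher.

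*Tsc1* (ENSMUSG00000026812, chromosome 2, 28641228 to 28691167, plus strand) encodes hamartin, which stabilises the TSC complex. It was measured at 34.7, 28.7, 37.1 and 36.9 CPM in mock and 41.4, 43.6, 45.3 and 39 CPM in GC7. All GC7 libraries were above all mock libraries (log2 change 0.30, SE 0.0891), and the change was 0.22 without mock replicate 2, the lowest library. *Tsc2* (ENSMUSG00000002496, chromosome 17, 24595816 to 24632630, minus strand) encodes tuberin, the subunit that acts on Rheb, and had 55.9, 50.2, 54.5 and 58 CPM in mock and 50.4, 52.8, 45 and 49.1 CPM in GC7. Here the groups overlapped, and the change in the mean was -9.68% (log2 change -0.15, SE 0.0708, or -0.05 when scaled by library totals). *Tsc2* shares 693 exon bases with *Pkd1* on the opposite strand (7.2% of its exon length), and a stretch of up to 404 bases of it matches 129 other genes, so its counts carry that uncertainty.

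Mock replicate 2 gave the lowest mock value for *Mtor*, *Rptor*, *Mlst8*, *Tsc1* and *Tsc2*, and the highest for *Rheb* and *Ddit4*. The plot of CPM by library shows this library below the other mock libraries in 5 panels.

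**Figure D1:**
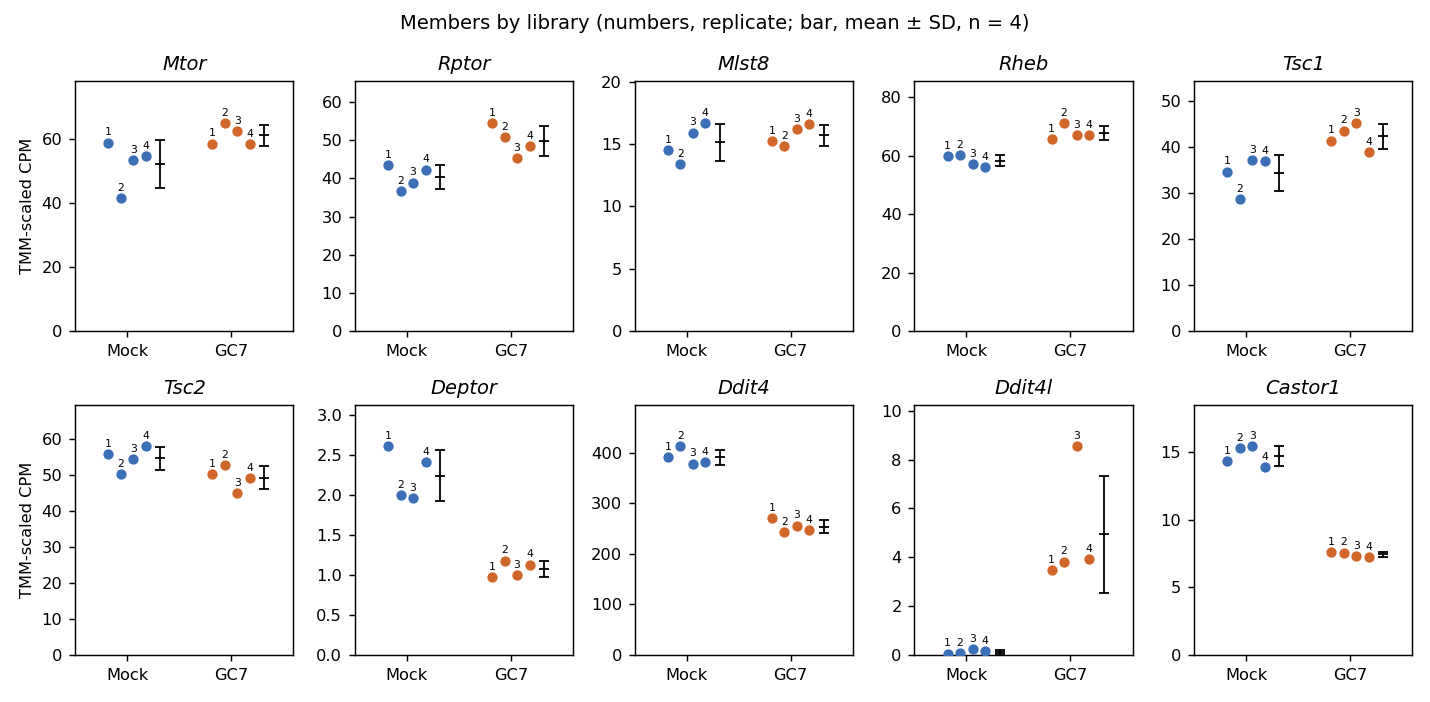
Each panel plots 1 gene, with TMM-scaled CPM from 0 on the vertical axis and the 4 mock and 4 GC7 libraries as points numbered by replicate; bars give the mean ± SD (n = 4). The groups are apart for *Rptor*, *Rheb*, *Tsc1*, *Deptor*, *Ddit4*, *Ddit4l* and *Castor1*, and GC7 replicate 3 stands at 8.54 CPM for *Ddit4l* against 3.46 to 3.93 CPM in the other GC7 libraries.

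*Ddit4* (ENSMUSG00000020108, chromosome 10, 59949669 to 59951834, minus strand) encodes REDD1. It had 7655, 9712, 8124 and 7633 counts in mock and 5574, 5337, 4592 and 5924 counts in GC7, so counting error is negligible beside the spread of the replicates. On the CPM scale these are 392, 413, 379 and 382 in mock and 271, 243, 256 and 247 in GC7. The highest GC7 library lay well under the lowest mock library, and the log2 change was -0.62 (SE 0.0608), a change in the mean of -35%. Leaving out any library kept the log2 change between -0.66 and -0.59.

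*Ddit4l* (ENSMUSG00000046818, chromosome 3, 137621612 to 137628333, plus strand) encodes REDD2. Its counts were 1, 2, 5 and 3 in mock and 71, 84, 153 and 94 in GC7. The mock values lie at or near the limit of what these libraries can detect, and GC7 replicate 3 was the highest library. The ratio of the summed counts was 36.6, with an exact 95% interval of 20.2 to 73.9 that covers counting error only. In CPM the mean was 0.13 ± 0.0801 in mock and 4.94 ± 2.41 in GC7 (SD, n = 4), and the fitted log2 change was 5.16 (SE 0.473), between 4.45 and 5.59 over the prior counts, tools and left-out libraries tried. The gene passed the filter only through the GC7 group, so it had to differ.

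In spite of its fold, *Ddit4l* stayed a minor part of the pair. Per kb of exon it made up 0.00786, 0.0124, 0.037 and 0.0236% of the summed *Ddit4* and *Ddit4l* level in mock and 0.761, 0.938, 1.97 and 0.946% in GC7. The sum itself was 224, 235, 216 and 218 CPM per kb in mock and 156, 140, 149 and 142 CPM per kb in GC7. The summed REDD transcript level was thus lower in every GC7 library than in every mock library.

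*Castor1* (ENSMUSG00000020424, chromosome 11, 4218225 to 4222409, plus strand) encodes a cytosolic arginine sensor that holds GATOR2, and with it mTORC1, in check when arginine is scarce. It was measured at 14.3, 15.3, 15.4 and 13.9 CPM in mock and at 7.59, 7.56, 7.31 and 7.23 CPM in GC7. Both groups were tight and far apart, with a log2 change of -0.99 (SE 0.0864), a change in the mean of -49.6%. It had no near-identical copy elsewhere.

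Of the 10 members, 9 passed the filter, and 5 of them were past an FDR of 0.01 in the edgeR fit, beside 46.6% of all tested genes. *Ddit4* and *Castor1* were lower (23.5% of tested genes were called lower) and *Rptor*, *Rheb* and *Ddit4l* higher (23% called higher). The call of *Rptor* was lost without mock replicate 3 or GC7 replicates 1, 2 or 4, and that of *Rheb* without any of these and without mock replicates 1 or 4. *Rheb* was also not called in the fit blocked by replicate number, with filterByExpr or without a filter. With a change of more than 2-fold as well, *Ddit4l* was left, beside 3.17% of tested genes called higher and 5.31% called lower. In 6 of the 9 the groups did not overlap, as in 55.6% of tested genes, and *Deptor* makes it 7 of 10. Since the members were chosen with this contrast known, nothing is read from these counts. *Ddit4l* passed the filter only through the GC7 group and had to differ, so neither its 2-fold call nor its rank carries weight. Among all tested genes, 99.9% changed less than *Ddit4l* in absolute log2 terms, 91.3% less than *Castor1* and 79.8% less than *Ddit4*. For the others this share was 51.3% for *Rptor*, 50.9% for *Tsc1*, 40.9% for *Mtor*, 38.9% for *Rheb*, 27.9% for *Tsc2* and 10.3% for *Mlst8*, so these lay in the bulk of the distribution.

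**Figure D2:**
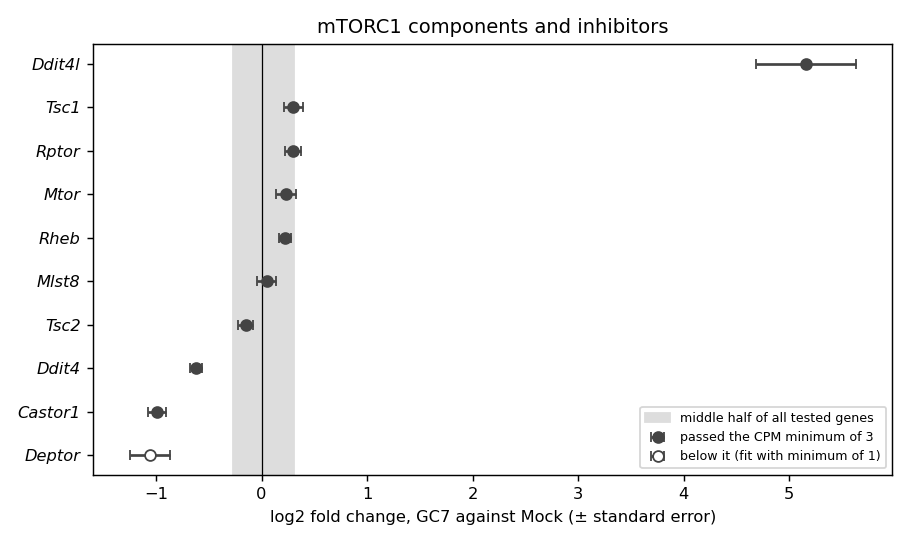
The horizontal axis gives the log2 fold change, GC7 against mock, with its standard error as a bar, for each of the 10 genes on the vertical axis; the grey band spans the quartiles of all tested genes, -0.27 to 0.31, and the open circle is *Deptor*, fitted with a CPM minimum of 1. The 6 genes of the core, activator and TSC complex lie inside the band, *Ddit4*, *Castor1* and *Deptor* to its left and *Ddit4l* to its right at 5.16.

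Levels of different genes were compared per kb of exon. In mock cells *Ddit4* stood far above the rest at 223 ± 8.74 CPM per kb, higher than 97.7% of tested genes. *Castor1* followed at 9.36 ± 0.476, *Rheb* at 7.55 ± 0.261, *Tsc2* at 5.68 ± 0.343 and *Mtor* at 5.17 ± 0.732 CPM per kb. *Mlst8* (3.41 ± 0.332), *Rptor* (3 ± 0.234) and *Tsc1* (2.9 ± 0.335 CPM per kb) were close together, and *Deptor* (0.253 ± 0.036) and *Ddit4l* (0.0446 ± 0.0275 CPM per kb) came last (SD, n = 4 for each). The ranges of the libraries overlapped for the neighbours *Tsc2* and *Mtor*, *Mlst8* and *Rptor*, and *Rptor* and *Tsc1*. Within each mock library, though, *Mlst8* was above *Rptor*. The mid-range order depends on the length used. With the longest transcript in place of the exon union, *Rheb* stood at 14.4 CPM per kb, then above *Castor1*. *Rptor* then stood at 6.13 CPM per kb, above *Mlst8* at 3.93.

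In GC7 cells the order was *Ddit4* (145 ± 7.14 CPM per kb), *Rheb* (8.77 ± 0.316), *Mtor* (6.06 ± 0.328), *Tsc2* (5.13 ± 0.342), *Castor1* (4.72 ± 0.115), *Rptor* (3.7 ± 0.292), *Tsc1* (3.58 ± 0.233), *Mlst8* (3.54 ± 0.185), *Ddit4l* (1.69 ± 0.826) and *Deptor* (0.121 ± 0.0112). *Castor1* thus went from rank 2 to rank 5, and *Ddit4l* moved above *Deptor*. The ranges overlapped for *Tsc2* and *Castor1*, for *Rptor* and *Tsc1*, and for *Tsc1* and *Mlst8*. This order also depends on the length used. With the longest transcript *Castor1* went from rank 3 in mock to rank 7 in GC7. *Rptor*, at 7.55 CPM per kb in GC7, then stood above *Mtor* at 7.15.

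**Figure D3:**
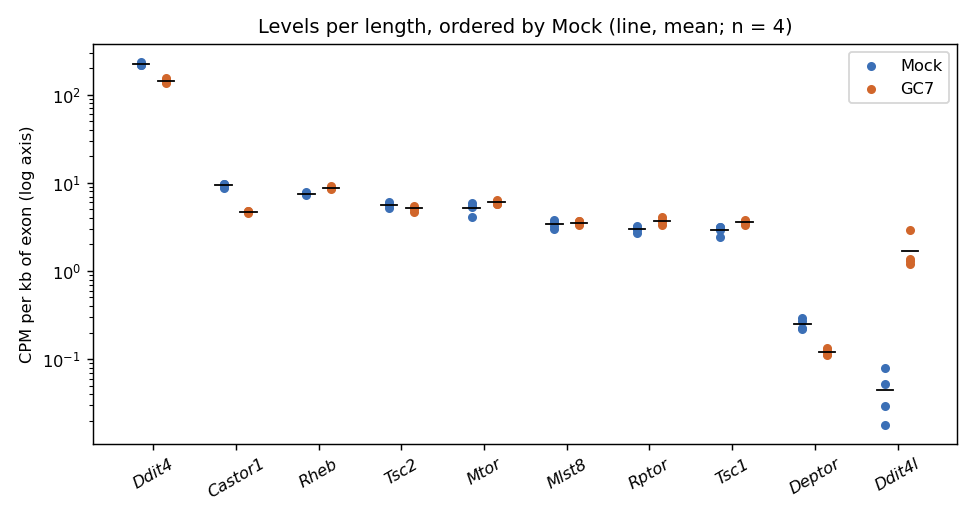
The vertical log axis gives CPM per kb of exon for the 10 genes, ordered along the horizontal axis by their mock mean, with points for the 4 mock and 4 GC7 libraries and a line at each mean. *Ddit4* lies over 10 times above every other gene in both groups, and *Ddit4l* spans the widest gap between the groups.

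Ratios within a library do not depend on how libraries are scaled. The ratio of *Tsc1* to *Tsc2*, per kb, was 0.505, 0.464, 0.554 and 0.517 in mock and 0.668, 0.671, 0.819 and 0.646 in GC7. *Tsc1* was the lower transcript in every library, its level per kb was closer to that of *Tsc2* in GC7, and the groups did not overlap (medians 0.511 and 0.669). *Rptor* to *Mtor* was 0.555, 0.66, 0.545 and 0.58 in mock and 0.699, 0.585, 0.542 and 0.623 in GC7, with overlap (medians 0.567 and 0.604). *Castor1* to *Mtor* was 1.55, 2.35, 1.85 and 1.63 in mock and 0.831, 0.744, 0.749 and 0.795 in GC7. The arginine sensor transcript was thus above that of the kinase in every mock library and under it in every GC7 library. *Ddit4* was 38.3 to 57 times as abundant as *Mtor* in mock libraries and 21.5 to 26.6 times in GC7 libraries, and the ratio of *Deptor* to *Mtor* was 0.0416 to 0.0545 and 0.0182 to 0.022, again without overlap. *Mlst8* to *Mtor* (0.56 to 0.731 in mock, 0.519 to 0.648 in GC7) and *Rheb* to *Mtor* (1.33 to 1.89 in mock, 1.4 to 1.51 in GC7) overlapped.

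**Figure D4:**
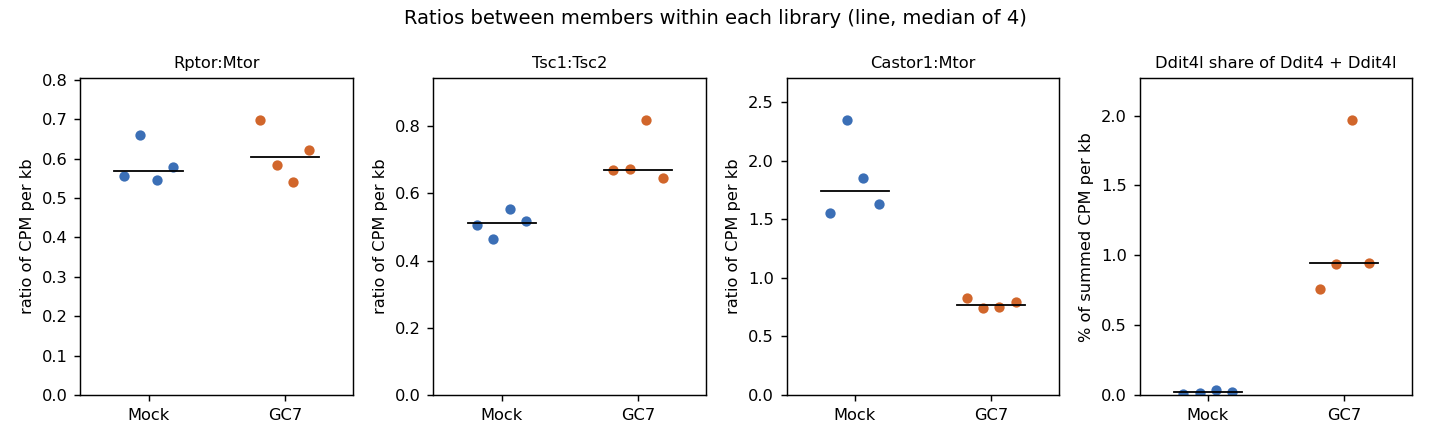
The first 3 panels plot ratios of CPM per kb between named genes in each of the 4 mock and 4 GC7 libraries, and the last the share of *Ddit4l* in the summed *Ddit4* and *Ddit4l* level in percent; lines are medians and all axes start at 0. *Rptor*:*Mtor* overlaps between the groups, while *Tsc1*:*Tsc2* (medians 0.511 and 0.669), *Castor1*:*Mtor* (1.74 and 0.772) and the *Ddit4l* share do not.

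Other genes of the pathway were taken from 5 lists by function, written with earlier results of these data known. Of 77 listed genes 73 were tested, and 16 were called higher and 24 lower at an FDR of 0.01 (edgeR, Benjamini-Hochberg), or 40 of 73 beside 46.6% of all tested genes. Their median log2 change was -0.08, beside 0.02 over all tested genes. Scaled by library totals, 20 were called higher and 17 lower, so the balance of directions depends on the scaling. In the paragraphs that follow, the genes given with means and FDR are, apart from *Castor2*, the up to 3 of a list that changed most, and *Castor2* and the others were named after their values were seen.

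Among the 9 other partners of the mTOR complexes, 3 were higher and 2 lower (median log2 change 0.09). *Mapkap1*, which encodes the mTORC2 subunit SIN1, rose from 39.4 ± 1.45 to 52.2 ± 1.63 CPM (SD, n = 4; log2 change 0.41, edgeR FDR 0.000101), and *Prr5*, which encodes the mTORC2 subunit Protor-1, fell from 37.8 ± 4.16 to 19.6 ± 2.95 CPM (log2 change -0.95, edgeR FDR 1.71e-05). Its relative *Prr5l* fell from 13.8 ± 1.26 to 7.42 ± 0.577 CPM (edgeR FDR 1.35e-05). The assembly factors *Tti1* (log2 change 0.25) and *Telo2* (0.30) were also higher, though 1 gene of this list was called higher, in place of 3, in a fit blocked by replicate number and without mock replicates 1 or 3 or GC7 replicates 1 or 2. The mTORC1 inhibitor *Akt1s1*, the mTORC2 scaffold *Rictor*, the third TSC subunit *Tbc1d7* and the *Rheb* relative *Rhebl1* were not called, with log2 changes of -0.08, -0.10, 0.27 and 0.09.

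Of the 29 tested genes of amino acid sensing, 7 were higher, 7 lower and 15 not called (median -0.07). *Sesn2*, which encodes a leucine sensor that holds GATOR2, had the largest rise, from 50.8 ± 1.89 to 131 ± 3.29 CPM (log2 change 1.37, edgeR FDR 1.94e-09). *Fnip2*, a partner of folliculin, rose from 5 ± 0.558 to 8.68 ± 1.22 CPM (edgeR FDR 0.00026), and the Rag GTPase *Rragd* fell from 14.4 ± 2.3 to 7.94 ± 0.697 CPM (edgeR FDR 0.000101). The *Castor1* relative *Castor2* went the other way from *Castor1*, with 24.2 ± 1.12 CPM in mock and 36.3 ± 2.43 CPM in GC7 (log2 change 0.58, edgeR FDR 2.34e-05). *Rraga*, which encodes the Rag GTPase RagA, and the Ragulator subunits *Lamtor1*, *Lamtor4* and *Lamtor5* were lower, with log2 changes of -0.62, -0.46, -0.35 and -0.40. In place of 7, 3 genes of this list were called lower by library totals and without GC7 replicates 2 or 4, and 4 without mock replicate 3 or GC7 replicate 3. The lysosomal arginine sensor *Slc38a9* had a log2 change of -0.01 and was not called.

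Of the 14 listed genes of the PI3K and AKT arm, through which IL-2 reaches the TSC complex, 7 were lower (median -0.34). The regulatory subunit *Pik3r2* fell from 31.8 ± 1.26 to 15.4 ± 1.16 CPM (log2 change -1.05, edgeR FDR 2.61e-07) and the catalytic subunit *Pik3cg* from 146 ± 17.3 to 85.8 ± 6 CPM (edgeR FDR 1.39e-05). *Inpp5d*, which encodes the phosphatase SHIP1, an enzyme that opposes PI3K, fell from 163 ± 8.65 to 100 ± 9.73 CPM (edgeR FDR 7.81e-06). *Akt1* and *Akt2* were not called, with log2 changes of -0.23 and -0.14.

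AMPK senses low energy and restrains mTORC1 through TSC2 and Raptor, and 3 of the 8 tested genes of this list were lower and 1 higher. The subunits *Prkab1* (45.7 ± 0.925 to 28 ± 1.38 CPM, edgeR FDR 1.45e-06), *Prkab2* (20.7 ± 2.93 to 13.4 ± 0.597 CPM, edgeR FDR 0.000266) and *Prkaa1* (51.6 ± 5.2 to 37.5 ± 1.57 CPM, edgeR FDR 0.000344) fell. The subunit *Prkag2* was called higher (log2 change 0.41), a call that was lost without mock replicates 1 or 3 or GC7 replicates 1, 2 or 4, and *Stk11*, which encodes the upstream kinase LKB1, had a log2 change of -0.02 and was not called.

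Among the 13 tested substrates and outputs of mTORC1, 4 were higher and 5 lower (median 0.05), with no common direction. *Eif4b*, an initiation factor, rose from 656 ± 29.2 to 997 ± 35.6 CPM (log2 change 0.60, edgeR FDR 5.85e-06) and the ribosomal protein gene *Rps6* from 2185 ± 273 to 3048 ± 265 CPM (edgeR FDR 0.00107). *Eef2k*, which encodes the kinase that slows elongation, fell from 33.4 ± 0.635 to 22.3 ± 1.73 CPM (edgeR FDR 2.5e-05). The S6 kinase gene *Rps6kb1* and the 4E-BP gene *Eif4ebp2* were called higher (0.31 and 0.33), and the 4E-BP gene *Eif4ebp1*, *Tfeb*, *Lpin1* and *Maf1* lower (-0.31, -0.39, -0.44 and -0.41). In place of 5, 2 genes of this list were called lower by library totals and without GC7 replicates 1 or 4, and 3 without mock replicate 4 or GC7 replicate 3. Transcript levels do not show the phosphorylation by which mTORC1 acts on these proteins.

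*Ddit4* is known to be induced in several settings, and genes typical of each were listed for comparison. All 7 tested hypoxia genes were lower with GC7 (median -2.26), 6 of them by more than 2-fold, among them *Ndrg1* (372 ± 13.2 to 45.9 ± 4.16 CPM, log2 change -3.02, edgeR FDR 3.7e-11), the prolyl hydroxylase gene *Egln3* (432 ± 4.82 to 71.9 ± 13.5 CPM, edgeR FDR 4.35e-09) and *Bnip3* (421 ± 8.15 to 82 ± 19.1 CPM, edgeR FDR 4.13e-08). Of 5 tested genes induced by the glucocorticoid receptor, 3 were lower (median -0.92). These were *Sgk1* (36.7 ± 0.979 to 11.5 ± 0.433 CPM, edgeR FDR 1.92e-09), *Tsc22d3* (61.1 ± 5.03 to 31.2 ± 2.35 CPM, edgeR FDR 7.28e-07) and *Fkbp5* (215 ± 10.5 to 113 ± 14.2 CPM, edgeR FDR 2.16e-06).

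The lists for the p53 and integrated stress response did not share this direction. Of 8 p53 target genes 7 were higher (median 1.08), 5 of them by more than 2-fold, with *Phlda3* from 19.3 ± 1.66 to 97 ± 9.02 CPM (log2 change 2.32, edgeR FDR 8e-10), *Ccng1* from 196 ± 24.8 to 688 ± 53 CPM (edgeR FDR 1.48e-08) and *Trp53inp1* from 172 ± 28.4 to 412 ± 96.8 CPM (edgeR FDR 1.96e-05). *Sesn1* was the exception, with a log2 change of 0.03. Of 8 genes of the integrated stress response 4 were higher and 1 lower (median 0.32). *Sesn2*, which is also on the amino acid sensing list, *Atf3* (24.5 to 49.6 CPM, log2 change 1.02, edgeR FDR 1.05e-06) and *Chac1* (2.42 to 4.86 CPM, log2 change 1.01, edgeR FDR 0.000902) more than doubled. *Chac1*, which is among the 4, ranged from 2 to 2.98 CPM in mock and from 3.46 to 6.33 CPM in GC7. It passed the filter of 3 CPM only through the GC7 group, so it had to differ and its call carries no weight. *Asns*, which encodes asparagine synthetase, was also higher (0.55). *Ppp1r15a* was lower (-0.47), and *Atf4* itself was not called (-0.11). Whether any of these settings bears on *Ddit4* in these cells was not tested.

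**Figure D5:**
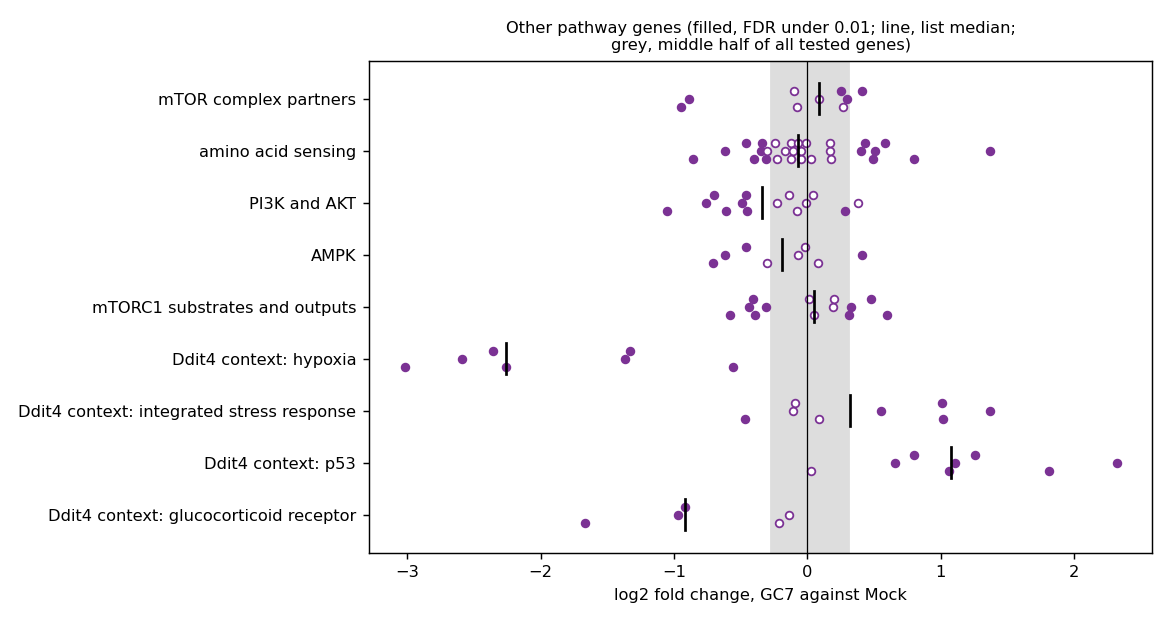
Each point is the log2 fold change, GC7 against mock, of 1 gene of the list named on the vertical axis; filled points passed an FDR of 0.01, the black line is the list median and the grey band spans the quartiles of all tested genes. The 5 mTOR pathway lists scatter on both sides of 0, while the medians of the 4 *Ddit4* settings lie at -2.26 for hypoxia, 0.32 for the integrated stress response, 1.08 for p53 and -0.92 for the glucocorticoid receptor.

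The tested protein-coding genes with the profile most like that of a REDD gene were found by the root mean square difference of log2 CPM, centred per gene, over the 8 libraries. For *Ddit4* these were *Dusp5* (difference 0.0329), a phosphatase of ERK, the tubulin gene *Tubb6* (0.0409) and *Anxa5* (0.0479), with log2 changes of -0.63, -0.64 and -0.66. Such profiles were common, as 209 genes lay within 0.1 of *Ddit4*. *Ddit4l* had no gene within 0.1, and the nearest were the trypsin gene *Try5* (0.363), a member of a family with close copies whose counts are uncertain, the receptor gene *Notch3* (0.384) and *Serpine2* (0.426), with log2 changes of 4.36, 4.47 and 4.42. With *Ddit4l* near the detection limit in mock, counting error alone makes so close a match unlikely, so its lack does not show a rare profile. *Try5* (0.234 CPM in mock) and *Notch3* (0.632 CPM in mock) also passed the filter of 3 CPM only through the GC7 group, so they had to differ too. *Serpine2* went from 10.1 to 216 CPM and was thus far more abundant than *Ddit4l*.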

How the data were processed

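RNA of 4 mock and 4 GC7 samples of mouse CD8 T cells was sequenced as paired-end reads. Groups and replicate numbers come from the sample titles. The authors trimmed reads with Cutadapt, aligned them to GRCm38 with STAR, counted them with featureCounts, and deposited raw counts per Ensembl gene for each sample, without normalisation. The strand setting and the handling of multiply matching reads are not given in the sources used here. All 55536 identifiers matched the GENCODE M21 annotation (Ensembl 96), whose exon unions gave lengths.

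A filter of over 3 CPM in 4 or more libraries (52.6 counts in the smallest library) left 11189 genes, which were tested with edgeR's quasi-likelihood F test (version 4.0.16, R version 4.3.3) with TMM factors and a model of the group alone, and p-values were adjusted by Benjamini-Hochberg over these genes. Genes under an FDR of 0.01 were called. P-values weigh the difference between the groups against the spread between libraries within a group. Alternatives were RLE factors, library totals, DESeq2 (version 1.42.0), limma-voom (version 3.58.1), other filters, prior counts, the replicate number as a block, transcript length, and fits without single libraries. Near-identical copies were BLAST matches (version 2.17.0) of at least 200 bases and 90% identity. Intervals on counts cover counting error only, since reads carry no molecular identifiers.

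The members and lists were chosen with earlier results of these data known. All members are named, with the up to 3 genes per list that changed most past the FDR and the 3 protein-coding genes with the nearest profile to *Ddit4* and *Ddit4l*. *Kics2* matched no gene, *Ddit3* had 2 identifiers, of which the lower was used, and *Prkaa2*, *Eif4ebp3*, *Grb10*, *Car9* and *Zbtb16* missed the filter. Some listed genes are not reported here. Python (version 3.11.15) was used for the remaining steps.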

Additional observations from a re-analysis of the deposited data

Results flagged for a closer look

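In groups of 4 libraries, the highest or lowest library was set apart where its gap to the nearest other, divided by the range, was above 0.829 (Dixon's 95% critical value). This was so in 6 of 72 groups, with about 4 expected by chance, and of the 6, GC7 replicate 3 made up 3 and mock replicate 2 made up 2. *Ddit4l* was set apart in GC7 replicate 3 (ratio 0.908), at 8.54 CPM against 3.46 to 3.93 CPM. The same library was highest for the p53 target genes *Ccng1* (ratio 0.94, 768 CPM against 658 to 665 CPM) and *Trp53inp1* (ratio 0.94, 557 CPM against 357 to 369 CPM). Mock replicate 2 was lowest for *Pik3cg* (ratio 0.906, 120 CPM against 153 to 156 CPM) and highest for *Rps6* (ratio 0.857, 2591 CPM against 1999 to 2084 CPM). GC7 replicate 2 was highest for *Prr5l* (ratio 0.97, 8.28 CPM against 7.11 to 7.14 CPM).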

How the results depend on the processing

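Of 164 log2 changes of the members under the alternatives, 163 kept their direction, the exception being *Mlst8*, at 0.00 without mock replicate 2. Over all alternatives *Castor1* ran from -1.01 to -0.89, *Ddit4* from -0.66 to -0.53 and *Tsc2* from -0.19 to -0.05, and *Ddit4l* was 4.78 without GC7 replicate 3. The number of members called higher, 3, was 1 to 3 with a library left out (1 without mock replicate 3 or GC7 replicates 1, 2 or 4, when *Rptor* and *Rheb* were not called), 2 with the replicate block and with filterByExpr, where *Rheb* was not called, and 4 by library totals and DESeq2. Of the 11189 tested genes, 2579 were called higher in the main fit and 2096 to 2859 with a library left out. That number was 2382 with the replicate block, 3346 by library totals and 2813 with DESeq2. With filterByExpr, which tests more genes, it was 2808. Nothing is read from the member counts, and the cause of these differences was not tested. Over all tested genes, those past an FDR of 0.01 and 2-fold (355 higher, 594 lower) became 773 and 1189 without a filter and 601 and 1013 with filterByExpr, which test more genes. By library totals the share of calls that were higher went from 49.5% to 61.9% over all genes and from 40% to 54.1% in the pathway lists. The sample titles do not say whether same-numbered samples share more than a number. Of the same-numbered pairs, 2 of 4 deviated together (correlations -0.183 to 0.272). Also, 2 of 4 GC7 libraries correlated best with their own number. So few pairs cannot decide whether the samples are paired. With the replicate block 4867 genes were called in place of 5214, 4759 of them shared, and the members' log2 changes were 0.24 for *Mtor*, 0.30 for *Rptor*, 0.06 for *Mlst8*, 0.22 for *Rheb*, 0.31 for *Tsc1*, -0.15 for *Tsc2*, -0.62 for *Ddit4*, 5.19 for *Ddit4l* and -0.99 for *Castor1*. Depth limits *Ddit4l* in mock and *Deptor* in both groups.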
